A study of Mus musculus with 4 samples.

Results

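Axon guidance ligands and receptors were followed in mouse dorsal root ganglia, where the cell bodies of sensory neurons lie beside the spinal cord, and compared between ganglia of 2 levels. Genes were taken by symbol, as every semaphorin, plexin, slit, Robo, netrin, Unc5, Eph receptor and ephrin with a probe set of its own, and Dcc, Nrp1, Nrp2 and Neo1. This gave 167 of the 45101 probe sets and 74 of 18193 genes. Among the 74, Unc50, Unc5cl and the antisense transcript Plxna4os1 matched by their letters and are neither ligands nor receptors of these families, which left 37 ligands and 34 receptors. Each gene was represented by its probe set with the highest mean over the arrays.

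Total RNA of freshly dissected ganglia was hybridised to 4 Affymetrix mouse arrays, 2 from ganglia of one level (sample-1 level) and 2 from ganglia of the other (sample-2 level). The labels give dissection as the only treatment of all 4, and do not say which levels were taken. No strain, genotype, sex or age is stated in them. Whether the arrays of 1 level stand for different animals is not stated either, so the p-values rest on a spread between arrays that may be technical. Values are the deposited intensities, scaled to a common mean on every array, so each difference is relative to the other RNA on the array. Intensities of different probe sets do not compare as levels of different genes. The median intensity of an array was 25.9 to 27.3, and arrays correlated at r = 0.982 to 0.987 across the tested probe sets. The 10 sensory neuron markers were all measured well above the filter level of 14.3, Uchl1 at 6958 and 6998 in the 2 levels, Snap25 at 6238 and 6481 and Prph at 5685 and 6032. Of 8 spinal cord markers Olig1, Olig2, Mog, Chat and Mnx1 had means below the filter level, and Aqp4, Mobp and Gfap had means of 88.2, 20.2 and 20.2 and did not pass.

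Axon guidance cues are proteins that attract or repel a growing axon tip through receptors on its surface. Class 3 semaphorins are secreted and act through neuropilins, which bind them, and type A plexins, which signal. Other semaphorins stay attached to the membrane and mostly bind plexins directly. Slits act on Robo receptors, netrins on Dcc, neogenin and Unc5 receptors, and ephrins on Eph receptor tyrosine kinases. Class 3 semaphorins repel many axons of dorsal root ganglia during development, and many of these genes stay active in adult ganglia, their glia and their connective tissue.

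Of the 71 ligands and receptors, 60 passed the filter on low signal and were tested, 33 ligands and 27 receptors. The ligands Sema3b and Ntn5 fell at the sample-2 level, and no receptor passed the threshold by its brightest probe set. Plxnc1, the receptor of Sema7a, had 1 of its 5 tested probe sets past the threshold, higher at the sample-2 level. Of all 27022 tested probe sets 0.622% passed, and 0.222% were higher and passed. The 2 members called were 3.33% of those tested, while 0.857% of 13542 genes were called in the same way (limma, Benjamini-Hochberg adjusted p under 0.05). Both were lower, as were 0.561% of all genes, against 0.295% that were higher. An unadjusted p under 0.05 was found for 14 members, or 23.3%, and for 12.4% of all genes. The median log2 difference, sample-2 minus sample-1 level, was 0.06 over the tested ligands and 0.01 over the tested receptors, against -0.01 over all genes tested. Neither call held under every setting. Without the filter on low signal 0 members passed (limma; 14 at an unadjusted p under 0.05), and without the intensity trend of the spread 0 passed (limma; 12 at an unadjusted p under 0.05).

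Of the 33 ligands, 10 (30.3%) had both sample-2 arrays above both sample-1 arrays and 12 (36.4%) below them, and of the 27 receptors 9 (33.3%) and 4 (14.8%). Of all genes tested, 20.6% lay above in this way and 22.3% below. Over ligands and receptors together 58.3% did not overlap, against 42.9% of all genes. The 95% interval of 51 of the 60 members lay within a 2-fold difference in either direction, as it did for 12805 of all 13542 genes.

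**Figure D1:**
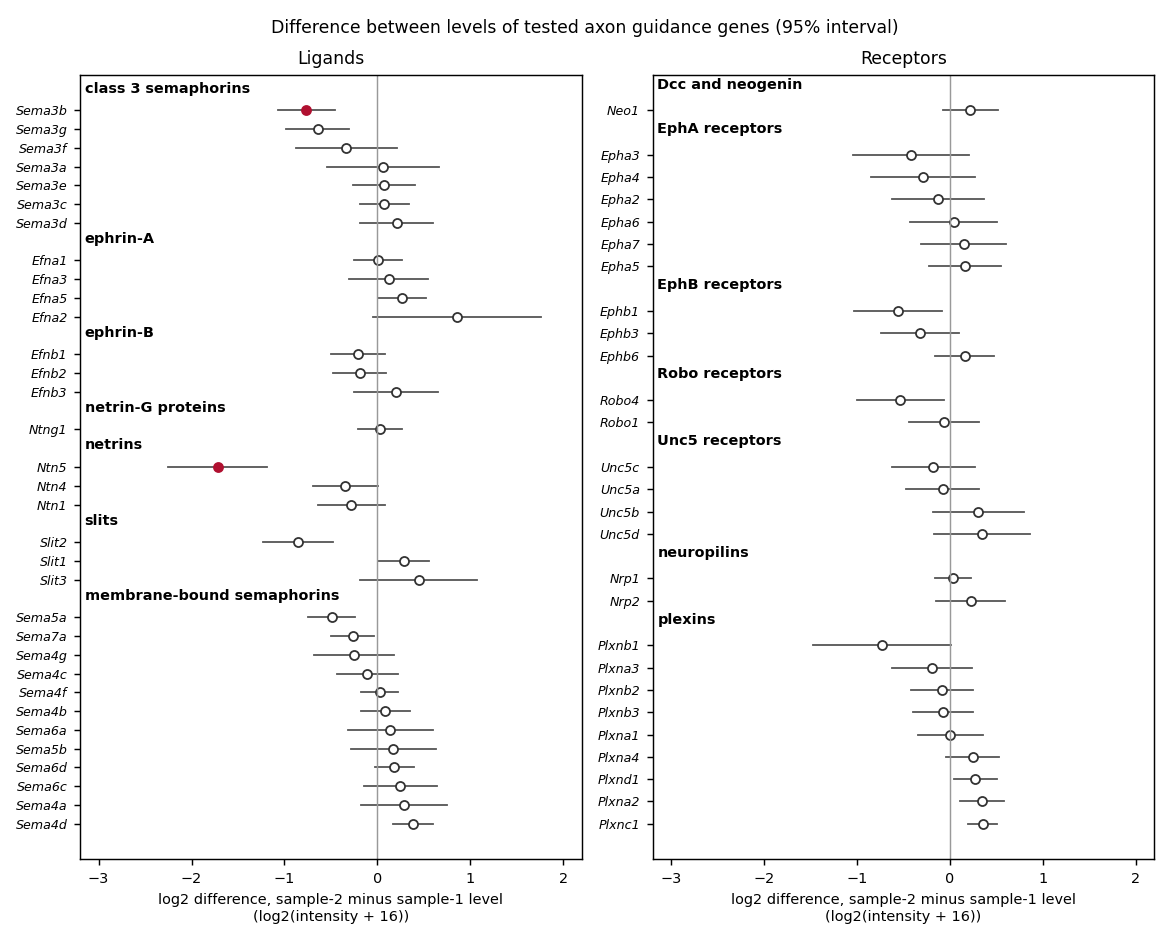
The log2 difference between the levels (x axis, log2(intensity + 16), sample-2 minus sample-1 level) with its 95% interval for each of the 60 tested members (y axis), grouped by family; filled points passed the threshold. Sema3b at -0.77 and Ntn5 at -1.72 are the filled points, and most other intervals include 0.

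Class 3 semaphorins were all 7 tested, and 1 fell. Sema3b, a secreted repellent that binds neuropilins, measured 544 and 525 at the sample-1 level and 366 and 258 at the sample-2 level. The levels did not overlap, although the sample-2 arrays stood far apart from each other. The level means were 535 ± 13.6 and 312 ± 76.5 (SD, n = 2), a log2 difference of -0.77 ± 0.14 (SE, adjusted p = 0.0348), or 1.70-fold lower on the log2(intensity + 16) scale. Its 2 other tested probe sets lay below 0 too, at -0.83 ± 0.15 (adjusted p = 0.0355) and -0.62 ± 0.17 (adjusted p = 0.151). The call rested on few arrays. Over the 4 fits that each omit an array, the adjusted p ran from 0.00293 to 0.129, under 0.05 only without sample-2 array 1, and with the arrays centred on their medians it was 0.0637.

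The other class 3 semaphorins did not pass. Sema3g measured 169.7 and 134 at the sample-1 level and 98.0 and 84.3 at the sample-2 level, a difference of -0.64 ± 0.15 (adjusted p = 0.103). Sema3f, a ligand chiefly of Nrp2, measured 195, 99.7, 134 and 86.5 in the same order, and its arrays overlapped between the levels. All 3 tested probe sets of Sema3f lay below 0. Its brightest probe set carries the suffix _x_at, which marks probes that can match other transcripts. Sema3a, the best known repellent of sensory axons, was near the filter level at 14.1 ± 0.383 and 15.5 ± 4.74 (SD, n = 2), so a difference could hardly be measured. Sema3c, Sema3d and Sema3e differed by 0.07, 0.21 and 0.07. The 95% interval of the difference of Sema3c ran from -0.19 to 0.34.

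The membrane-bound semaphorins spread in both directions with 0 of 12 tested past the threshold (limma; 3 at an unadjusted p under 0.05). Sema5a, which carries thrombospondin repeats, measured 403 and 367 at the sample-1 level and 289 and 249 at the sample-2 level, a difference of -0.49 ± 0.11 (adjusted p = 0.0912). All 3 of its tested probe sets were lower, from -0.38 to -0.59. Sema4d, a ligand of Plxnb1, measured 351 and 372 against 481 and 472, a difference of 0.39 ± 0.10 (adjusted p = 0.129), and its 3 tested probe sets were all above 0. Sema7a, a GPI-anchored semaphorin that promotes axon growth, measured 429 and 474 against 352 and 394 (-0.27 ± 0.11, adjusted p = 0.376). These 3 genes had arrays that did not overlap between the levels.

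Sema6d measured 1002 and 966 at the sample-1 level and 1222 and 1025 at the sample-2 level (0.18 ± 0.10, adjusted p = 0.528). Sema4a, at 0.29 ± 0.21 (adjusted p = 0.683), measured 80.7 on sample-2 array 2 and 47.6 to 49.7 on the others. The other tested probe set of Sema4a differed by 0.41 ± 0.20 (adjusted p = 0.479), without overlap. For Sema4f, at 816 ± 52.4 and 829 ± 33.7 (SD, n = 2), the 95% interval of the difference ran from -0.17 to 0.22. Sema4b, Sema4c, Sema4g, Sema5b, Sema6a and Sema6c lay between -0.25 and 0.25 with adjusted p of 0.675 or more. Sema6b had a mean below the filter level and was not tested.

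Among the slits, Slit2 came closest to the threshold. This secreted ligand of Robo receptors measured 209 and 168 at the sample-1 level and 115 and 80.4 at the sample-2 level, which did not overlap. The difference of -0.85 ± 0.17 had an adjusted p of 0.0510, just outside the threshold. Over the fits that each omit an array it ran from 0.0155 to 0.210, under 0.05 only without sample-2 array 1. A second, dim probe set of Slit2 lay at -0.36 ± 0.28 (adjusted p = 0.703). Slit1 had the opposite sign, with 234 and 210 against 299 and 249 (0.28 ± 0.13, adjusted p = 0.447). The other tested probe set of Slit1 differed by 0.03, with overlap. Slit3 lay near the filter level, with 21.4 and 7.71 against 27.5 and 21.7 (0.45 ± 0.29, adjusted p = 0.627).

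All 3 tested netrins were lower at the sample-2 level without overlap of the arrays, as were 22.3% of all genes. Of the 3, 1 fell, against 0.561% of all genes. Ntn5, a member of the netrin family, measured 69.8 and 84.9 at the sample-1 level and 19.0 and 6.77 at the sample-2 level. The sample-2 mean of 12.9 ± 8.68 (SD, n = 2) lies below the filter level, so the fitted difference of -1.72 ± 0.24 (adjusted p = 0.0106) depends on the pseudocount and was -2.64 with a pseudocount of 1. Its adjusted p was 0.0505 without sample-1 array 2 and 0.00208 to 0.0218 without each of the others. Ntn5 has a single probe set here, so no second one can be set beside it. Ntn1, the classical attractant of commissural axons, measured 87.4 and 73.8 against 64.9 and 61.7 (-0.28 ± 0.16, adjusted p = 0.581). Ntn4, a basement membrane netrin, measured 142 and 125 against 87.3 and 118 (-0.35 ± 0.16, adjusted p = 0.464). Ntn3 had a mean below the filter level and was not tested. Ntng1, a GPI-anchored relative that binds a different receptor, measured 328 ± 28.6 and 334 ± 4.10 (SD, n = 2), a difference of 0.03 with a 95% interval of -0.21 to 0.27. Its other tested probe sets differed by -0.25, without overlap, and by -0.08, with overlap. Ntng2 was not tested for low signal.

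Promoters are shown for the members past the threshold or nearest to it that the table holds, 2 ligands with a negative and 1 receptor with a positive difference. The sequences come from RefSeq (GRCm38.p6) and hold the 250 bases before the annotated start. They read 5′ to 3′ on the gene's strand, in lower case with each GGGCGG or its reverse complement CCGCCC, the core of the GC box bound by Sp1, in capitals. Of the 71 members 61 matched the table by symbol, with 77 promoters. Ntn5, at chr7:45683772-45684021 on the plus strand, had the largest negative difference of the tested members. Slit2, at chr5:47982905-47983154 on the plus strand, was the ligand just outside the threshold. Plxnc1, at chr10:94944846-94945095 on the minus strand, was the receptor with a probe set past the threshold.
Ntn5: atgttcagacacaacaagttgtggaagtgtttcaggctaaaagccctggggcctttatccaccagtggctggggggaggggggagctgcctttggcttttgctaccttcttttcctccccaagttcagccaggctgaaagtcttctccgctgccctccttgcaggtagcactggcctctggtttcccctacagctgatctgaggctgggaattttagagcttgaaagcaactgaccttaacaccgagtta
Slit2: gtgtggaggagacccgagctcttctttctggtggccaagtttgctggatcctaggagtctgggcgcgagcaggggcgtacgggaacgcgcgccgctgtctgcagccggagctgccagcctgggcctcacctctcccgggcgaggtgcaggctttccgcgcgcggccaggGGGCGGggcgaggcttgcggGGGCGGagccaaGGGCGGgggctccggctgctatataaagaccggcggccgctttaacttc
Plxnc1: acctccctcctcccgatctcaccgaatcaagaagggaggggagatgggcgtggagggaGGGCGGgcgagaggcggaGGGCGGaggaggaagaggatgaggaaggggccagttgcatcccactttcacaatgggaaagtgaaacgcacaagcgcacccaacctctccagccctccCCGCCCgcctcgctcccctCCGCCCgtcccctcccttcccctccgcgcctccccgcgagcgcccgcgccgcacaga

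The 3 promoters differ in composition. That of Ntn5 holds 2 CpG dinucleotides and 0 GC box cores, that of Slit2 25 and 3, and that of Plxnc1 22 and 4. A TATA box (TATAAA or TTTATA, on either strand) stands in that of Slit2 only. The member promoters held a median of 15.0 CpG dinucleotides against 6.0 over all 32851 promoters of the table. A GC box core was found in 71.4% of them, against 32.7% of all promoters, and a TATA box in 2.6%, against 12.4%. A match of letters is a description and no evidence of binding.

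Ephrins showed no call among 7 tested (limma; 1 at an unadjusted p under 0.05). Efna5, a repellent ligand of EphA receptors, measured 179 and 176 against 216.1 and 216.4, with no overlap and a difference of 0.26 ± 0.12 (adjusted p = 0.448). Efna2 measured 3.67, 48.8, 46.8 and 50.6, so that sample-1 array 1 alone stood apart. Its difference of 0.86 ± 0.41 (adjusted p = 0.484) was -0.0032 without that array and 1.72 (adjusted p = 0.0183) without sample-1 array 2. Efna1 measured 200 ± 4.20 and 201 ± 1.72 (SD, n = 2) and Efna3 38.4 ± 3.92 and 43.0 ± 3.06. The tested probe sets of Efna1 differed by 0.01 and 0.29, and those of Efna3 by 0.12 and -0.40. Efna4, whose gene lies beside that of Efna3 in the reference annotation, was not tested for low signal. Efnb1 measured 146 and 161 against 125 and 136 (-0.21 ± 0.13, adjusted p = 0.622), and Efnb3 30.6 and 43.4 against 44.8 and 44.0 (0.20 ± 0.21, adjusted p = 0.797). Efnb2, which marks arteries as well as neurons, measured 182 and 162 against 155 and 142 (-0.19 ± 0.13, adjusted p = 0.653), but its 4 tested probe sets ran from -0.67 to 0.19.

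**Figure D2:**
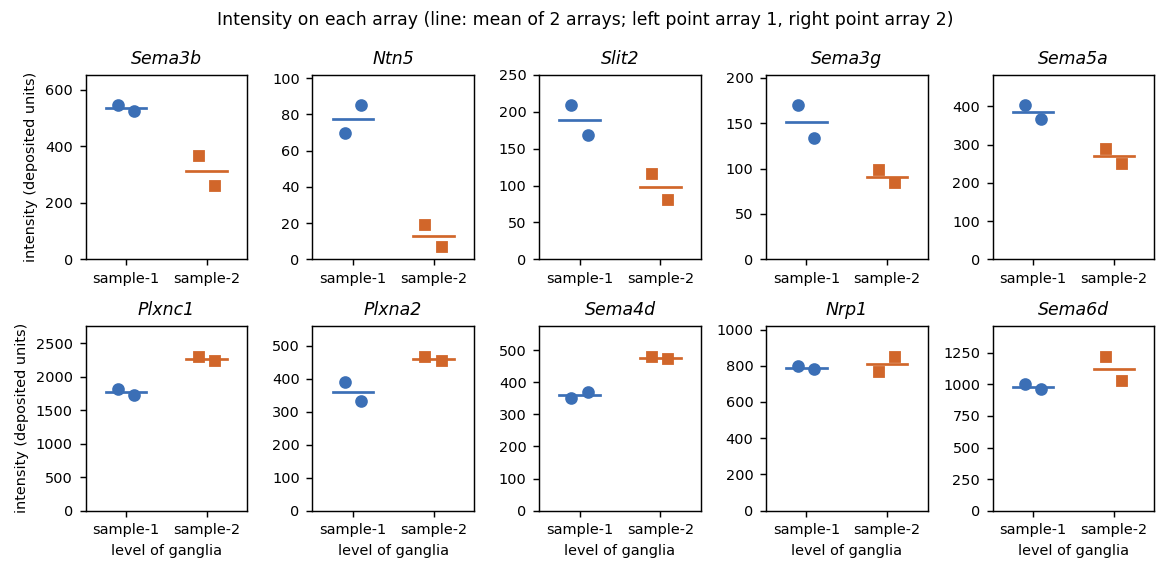
Deposited intensity (y axis, from 0) of 10 members on each array at the sample-1 level (circles) and the sample-2 level (squares), with a line at the mean of the 2 arrays. Sema3b, Ntn5, Slit2, Sema3g and Sema5a lie lower at the sample-2 level without overlap, Plxnc1, Plxna2, Sema4d and Sema6d higher without overlap, and Nrp1 overlaps.

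Plexins, the signalling receptors of semaphorins, were all 9 tested. Plxnc1 measured 1819 and 1722 at the sample-1 level and 2299 and 2229 at the sample-2 level. The levels stood well apart, and the difference of 0.35 ± 0.07 had an adjusted p of 0.0561, just outside the threshold. Its probe set of intermediate brightness rose by 0.54 ± 0.10 (adjusted p = 0.0327), and the 3 others differed by 0.36, 0.41 and 0.38. All 5 tested probe sets were thus higher. In the fits that each omit an array the brightest one differed by 0.31 to 0.39, with adjusted p of 0.116 to 0.270.

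Plxna2, a type A plexin that signals for class 3 and class 6 semaphorins, measured 391 and 332 against 468 and 454 (0.34 ± 0.11, adjusted p = 0.238). Its 4 tested probe sets were all above 0, from 0.11 to 0.37. Plxnd1, the receptor of Sema3e, measured 267 and 264 against 319 and 327 (0.27 ± 0.11, adjusted p = 0.366), and Plxna4 182 and 153 against 207 and 194 (0.24 ± 0.13, adjusted p = 0.543). These 3, like Plxnc1, had no overlap between the levels. Plxnb1 measured 73.7, 86.6, 78.5 and 19.3, so that sample-2 array 2 alone was low. Its difference of -0.73 ± 0.34 (adjusted p = 0.470) was -0.02 without that array and -1.44 (adjusted p = 0.0107) without sample-2 array 1. Plxna1, Plxna3, Plxnb2 and Plxnb3 differed by 0.01, -0.19, -0.09 and -0.07, with overlapping arrays. The other tested probe set of Plxna3 differed by 0.47 and that of Plxnb3 by -0.32, also with overlap.

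The neuropilins, which bind class 3 semaphorins, did not pass the threshold. Nrp1 measured 799.9 and 779.6 against 767 and 851, overlapping, with a difference of 0.03 ± 0.09 and a 95% interval of -0.16 to 0.23. Its other tested probe sets differed by -0.02 and 0.08. Nrp2 measured 243 and 182 against 207 and 296 (0.22 ± 0.17, adjusted p = 0.703), while its other tested probe sets differed by -0.16 and -0.14.

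Receptors of slits and netrins gave no call. Robo1 measured 103 and 74.0 against 84.9 and 81.0, overlapping (-0.07 ± 0.17, adjusted p = 0.935). Robo4, the Robo of endothelial cells, measured 47.9 and 37.6 against 25.9 and 22.9 (-0.53 ± 0.22, adjusted p = 0.383), with no overlap. Of 10 endothelial and mural cell markers 0 passed the threshold (limma; 3 at an unadjusted p under 0.05), and 7 of them lay below 0, with a median of -0.17. Their summed intensity was 2783 to 2949 at the sample-1 level and 3144 to 3238 at the sample-2 level, and without Rgs5, a mural cell gene and the brightest of them, it was 1128 to 1231 and 961 to 1110. Robo2 and Robo3, neighbours of Robo1 and Robo4 in the annotation, had means below the filter level. Dcc, the main attractive netrin receptor, measured 18.0 and 4.18 against 6.74 and 15.7, also below it on average. Neo1, the related neogenin, measured 129 and 117 against 139 and 152 (0.22 ± 0.14, adjusted p = 0.611), and its other tested probe set differed by 0.48. Unc5c, a repulsive netrin receptor, measured 89.7 and 87.1 against 57.2 and 99.8, overlapping. Unc5d measured 16.8 and 22.3 against 29.2 and 28.6 (0.34 ± 0.24, adjusted p = 0.657), and Unc5b 58.0 and 31.2 against 53.8 and 60.4 (0.30 ± 0.23, adjusted p = 0.687). Unc5a differed by -0.08.

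Of 9 tested Eph receptors 0 passed (limma; 1 at an unadjusted p under 0.05). Ephb1 measured 43.4 and 67.0 against 29.6 and 34.1 (-0.55 ± 0.22, adjusted p = 0.363), and Ephb3 47.0 and 56.3 against 37.3 and 38.4 (-0.33 ± 0.19, adjusted p = 0.583), both without overlap. Ephb6, which lacks kinase activity, measured 103 and 106 against 109 and 128 (0.16 ± 0.14, adjusted p = 0.763). Epha3 measured 22.6 and 22.6 against 7.42 and 19.6 (-0.42 ± 0.28, adjusted p = 0.650), near the filter level. Epha4, which binds ephrins of both classes, measured 23.5, 45.6, 24.3 and 24.5, with sample-1 array 2 alone high. Epha5 measured 48.9 and 49.1 against 57.4 and 55.9 (0.16 ± 0.18, adjusted p = 0.810), but its 4 tested probe sets ran from -0.24 to 0.16. Epha2, Epha6 and Epha7 differed by -0.13, 0.04 and 0.15, and the 3 tested probe sets of Epha7 ran from -0.36 to 0.31. Epha1, Epha8, Epha10 and Ephb4 had means below the filter level and were not tested.

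Some ligands are set beside receptors known to bind them. No rule set the choice of pairs, which leaves out the netrins, Slit1 and the ephrins. For Sema7a and its receptor Plxnc1 the differences were -0.27 and 0.35, for Sema4d and Plxnb1 0.39 and -0.73 (-0.02 without sample-2 array 2), and for Sema3e and Plxnd1 0.07 and 0.27. Sema3b was lower by 0.77 on the log2 scale, whereas Nrp1 and Nrp2 differed by 0.03 and 0.22. For Slit2 and Robo1 the differences were -0.85 and -0.07. Only that of Sema3b passed the threshold in these pairings, so no test places a ligand against its receptor.

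By place of action, the 13 tested secreted ligands (class 3 semaphorins, slits and netrins other than netrin-G) had a median difference of -0.28, and the 20 tested membrane-bound ones 0.10. The secreted ones were split, with 6 above 0 and 7 below, and the membrane-bound ones lay 14 above and 6 below. With the untested members included, the medians were -0.11 over 14 secreted and 0.09 over 23 membrane-bound ligands. Both called members are secreted. Among the secreted ligands 6 were lower and 4 higher without overlap, and among the membrane-bound 6 and 6, against 22.3% and 20.6% of all genes. The difference between these groups was not tested.

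**Figure D3:**
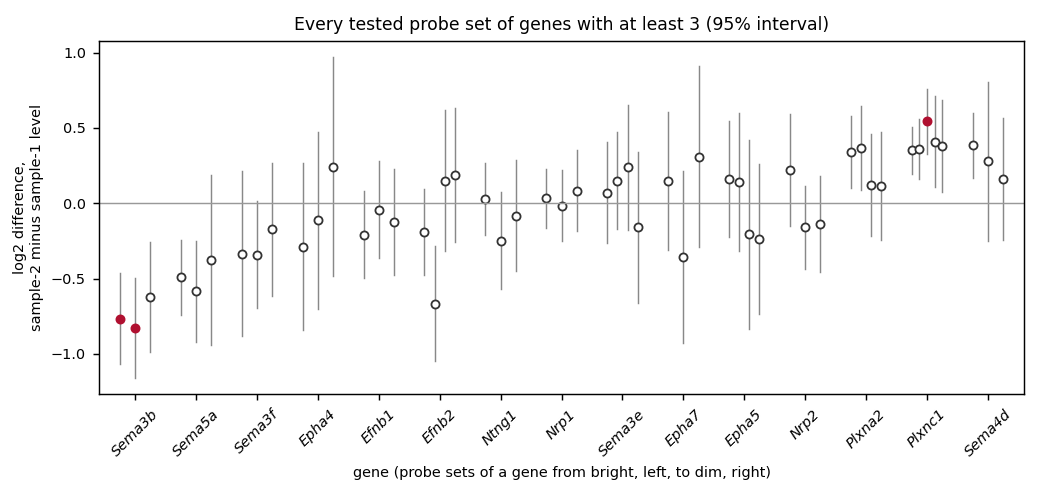
The log2 difference with its 95% interval (y axis, log2(intensity + 16)) of each tested probe set of the 15 members with at least 3 (x axis, bright to dim within a gene); filled points passed the threshold. All probe sets of Sema3b, Sema5a and Sema3f lie below 0 and all of Plxna2, Plxnc1 and Sema4d above it, while those of Efnb2 spread from -0.67 to 0.19.

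Genes with several probe sets allow a comparison of signs within a gene. Of the 15 members with at least 3 tested probe sets, 7 had all of them on the same side of 0, or 46.7%, against 34.7% of 2616 genes. The 7 were Sema3b, Sema5a, Sema3f and Efnb1 below 0 and Plxna2, Plxnc1 and Sema4d above it. Probe sets of a gene share the RNA of the arrays and are no replicates of the comparison.

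Markers of connective tissue and Schwann cells lay below 0. In bulk RNA fewer cells of a type and less RNA per cell cannot be told apart. Of the markers of fibroblasts, meninges and perineurium, all 12 were negative in sign and 6 fell, against 0.561% of all genes, among them Ptgds (-1.17), Mfap5 (-1.01) and Lum (-0.73). Their summed intensity was 13904 to 15806.5 at the sample-1 level and 8894 to 9386 at the sample-2 level, and none had a mean below the filter level. Of the 7 Schwann cell and myelin markers with a probe set all lay below 0 and Pmp2 and Ugt8a fell, with a summed intensity of 17700 to 19511 and 13386 to 17231. The 8 satellite glial cell markers also all lay below 0, with a median of -0.10, and 0 passed (limma, 0 at an unadjusted p under 0.05). Sema3b, Ntn5, Slit2, Sema3g and Sema5a were named here as lower ligands, so their shared direction with these markers was fixed by the choice. Of the 33 tested ligands 13 lay below 0 and 20 above. The part of connective tissue cells in the result was not tested.

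Markers of nociceptors, sensory neurons that are mostly unmyelinated, lay above 0 in all but 1 case. All 6 nonpeptidergic nociceptor markers with a probe set were higher without overlap, Mrgpra3 passed the threshold, and their summed intensity was 7239 to 7504 at the sample-1 level and 9019 to 9207 at the sample-2 level. Of the 4 peptidergic nociceptor markers with a probe set 3 were higher without overlap and 2 rose, Trpv1 (0.74) and Tac1 (0.33), with sums of 4474 to 4594 and 5721 to 5946. Of all genes 20.6% were higher without overlap and 0.295% passed as higher. Of the 7 markers of myelinated mechanoreceptors and proprioceptors 4 lay above 0 and 3 below, and Pvalb fell (-1.64), with sums of 8239 to 8822 and 6606 to 7491. Of the 10 general sensory neuron markers 9 lay above 0 and 6 were higher without overlap, with sums of 35206 to 35747 and 36267 to 38210. Plxnc1, Plxna2 and Sema4d were also higher, and were named here for that, so the shared direction was fixed by the choice. Neutrophil markers, given below, shared it too. The part of any of these cells in it was not tested. Other tissue also differed between arrays. The 10 skeletal muscle markers summed to 8666 on sample-1 array 2 and to 1316 to 2021 on the other arrays, and Myh2 was the 1 that fell. The 6 neutrophil markers with a probe set all rose, from a sum of 3246 and 3854 to 6523 and 8192.

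**Figure D4:**
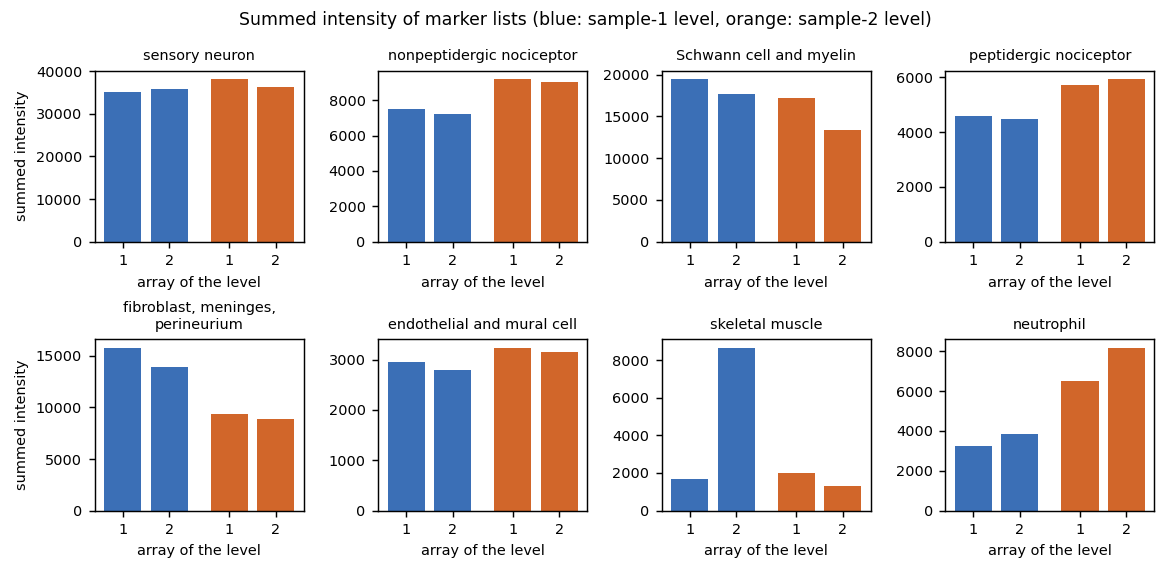
Summed deposited intensity (y axis, from 0) of 8 lists of cell type markers on each array, numbered within its level (x axis). The fibroblast, meninges and perineurium list is lower on both sample-2 arrays, the neutrophil list and both nociceptor lists are higher on both, as is the endothelial and mural cell list through Rgs5, and the skeletal muscle list stands out on sample-1 array 2 at 8666.

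Downstream of the receptors, 65 of 69 listed effectors and co-receptors had a probe set and 64 were tested. None passed the threshold (limma; 10 at an unadjusted p under 0.05), 35 lay above 0 and 29 below, and the median difference was 0.01. Ngef, which acts behind EphA receptors, measured 32.8 and 33.9 against 87.4 and 65.0 (0.89 ± 0.19, adjusted p = 0.0712). Cntn2, an adhesion molecule of axons, measured 258 and 226 against 352 and 336 (0.48 ± 0.11, adjusted p = 0.0948). Cntn4, its relative, measured 59.5 and 59.1 against 24.3 and 40.4 (-0.66 ± 0.21, adjusted p = 0.243). Dock1, an activator of Rac that is used downstream of Dcc, measured 113 and 111 against 94.7 and 60.9 (-0.47 ± 0.18, adjusted p = 0.352).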

How the data were processed

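Mouse dorsal root ganglia of 2 levels were measured on 2 arrays each. The authors deposited 1 linear intensity for each probe set. Trimmed by 2% at each end, every array averaged 150.0, which shows a scaling to one target. The software is not given in the sources used here. Intensities were taken as log2(intensity + 16). The 64 control probe sets and those with a mean below the 40th percentile (an intensity of 14.3) were left out, leaving 27022. These were fitted with limma 3.58.1 (R 4.3.3; eBayes with an intensity trend, 2 residual and 9.71 prior degrees of freedom), with no covariate, and p-values were adjusted by Benjamini-Hochberg over all of them. The fit was tested on data simulated from its own model of the spread. That does not test whether the model holds for these arrays. The platform annotation gave 1 symbol to 34945 probe sets, several to 932 and none to 9160 of those analysed.

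The members and lists were chosen with earlier results of these data known. Values on each array are given for members past the threshold or with a probe set past it, and for the brightest of each family. They are also given for the 3 with the largest difference in each family, and for Dcc, Neo1, Nrp1 and Nrp2. Sema7a, Plxnd1 and Plxna4 were added outside this rule. The 36 other named members counted below do not include them. Effectors are named if past the threshold, or otherwise the 4 with the largest differences, and up to 3 markers are named from a list. Lists are described by counts and medians. The spinal cord, red cell, macrophage, endothelial, peptidergic nociceptor and large-fibre lists had 0, 1, 0, 0, 2 and 1 markers past the threshold. In the same order 3, 2, 8, 10, 4 and 7 markers were tested, and 0.857% of all genes were called. Alternatives were other pseudocounts, filters, scalings and spread models, the array number as a block, no _x_at or _s_at probe sets, gene means, and each array left out.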

Additional observations from a re-analysis of the deposited data

How the results depend on the processing

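Over all probe sets 168 passed. Without the filter on low signal 4 passed, without the intensity trend 1, with arrays centred on their medians 104, and with each array left out in turn 102 to 241. Among the members Sema3b and Ntn5 passed. Without the filter 0 members passed (limma; 14 at an unadjusted p under 0.05) and without the trend 0 (12 at an unadjusted p under 0.05). Centred on array medians 1 passed, Ntn5, and 1, Ntn5, with the probe sets of each gene averaged. Without _x_at and _s_at probe sets 4 passed, Ntn5, Sema3b, Slit2 and Plxnc1, and with each array left out in turn 1 to 4 passed: Ntn5 without sample-1 array 1, Efna2 without sample-1 array 2, Ntn5, Plxnb1, Sema3b and Slit2 without sample-2 array 1, and Ntn5 without sample-2 array 2. The median difference ran from -0.041 to 0.070 for ligands and from -0.019 to 0.106 for receptors with each array left out. The difference of Sema3b and Ntn5 kept its sign under every alternative run, 27 values in all, with 10 of them outside the threshold; Ntn5 could not be fitted with a filter at the 60th percentile. The 36 other named and tested members changed sign in 17 of 493 values and passed in 14. Same-numbered arrays of the levels share only a number, and their deviations correlated at 0.03. With the array number as a replicate block 793 probe sets and 7 members passed (Ntn5, Sema3b, Sema3g, Sema5a and Slit2 lower, Plxnc1 and Sema4d higher). With 2 arrays a level and no detection calls, differences of dim members cannot be measured well. The cause of these changes was not tested.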
